A study of Mus musculus with 43 samples.

Results

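PRC1.6 is the Polycomb complex built around PCGF6. The 8 genes described here encode its characteristic subunits, namely Pcgf6, Mga, Max, E2f6, Tfdp1, L3mbtl2, Cbx1 and Cbx3. They were chosen by symbol from knowledge of the complex, with earlier results of these data known. All 8 were found in each of the 3 deposited tables, among 35815, 35842 and 35842 genes. RNA was measured in 43 mouse libraries, namely 13 of full-grown oocytes and 30 of morulae. In the first oocyte set, 2 libraries came from oocytes labelled PRC1-WT and 2 from PRC1 catalytic dead oocytes (PRC1-CD), and each library held 10 pooled oocytes. In the second oocyte set, 3 libraries came from wild-type oocytes (WT), 3 from Pcgf1/6 double knockout oocytes (DKO) and 3 from oocytes that lacked Pcgf1, Pcgf6 and Mll2 (TKO). Mll2 is the histone H3 lysine methyltransferase listed in the tables as Kmt2b. The morulae were 10 wild-type libraries, 10 of embryos from mothers with the Pcgf1/6 deletion (matDKO) and 10 of embryos whose mothers lacked all of Pcgf1, Pcgf6 and Mll2 (matTKO). Mouse strain, age, the Cre driver, the exons removed and the paternal genotype are not given in the sources used here. Nor do the labels say which replicates came from separate animals, so each p-value speaks for the variation among these libraries alone, and that variation may be technical.

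PRC1.6 is a non-canonical form of Polycomb repressive complex 1, which places ubiquitin on histone H2A through the enzyme RING1B (Rnf2) or RING1A (Ring1). It differs from other forms in carrying its own DNA-binding proteins: MGA paired with MAX recognises E-boxes, and E2F6 paired with a DP protein such as TFDP1 recognises E2F sites. L3MBTL2 and the HP1 proteins CBX1 and CBX3 bind histones. The complex is best known for keeping meiotic and other germline genes silent in embryonic stem cells and somatic cells. PCGF1 defines another non-canonical form, PRC1.1, and is not part of PRC1.6.

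The question put to these sequences was whether the letters that the complex's DNA-binding subunits recognise lie before germline genes that this complex is reported to silence. The palindromic E-box CACGTG and the E2F word GCGGGAA were searched on both strands in the 250 bases before each RefSeq gene start (GRCm38.p6); in the windows printed below no match of one word overlaps a match of the other. Of 26 germline genes listed as reported targets from general knowledge, with earlier results of these data known, 23 were in the promoter table. The first listed window held CACGTG in 12 of these 23 and in 6.05% of 27025 genes. It held GCGGGAA in 7 of the 23 and in 3.84% of all genes. Among the 8 subunit genes themselves, only the Tfdp1 window held CACGTG and 0 held GCGGGAA. A match is a description of letters and not a binding site. The 5 windows below belong to the germline genes with the largest changes described further on that were in the table, and capitals mark the 2 words on either strand. They are, in order, chr3:95559427-95559676 (plus strand), chr10:88459337-88459586 (plus), chr3:82876484-82876733 (minus), chr11:102665335-102665584 (plus) and chr7:140787855-140788104 (minus).
Hormad1: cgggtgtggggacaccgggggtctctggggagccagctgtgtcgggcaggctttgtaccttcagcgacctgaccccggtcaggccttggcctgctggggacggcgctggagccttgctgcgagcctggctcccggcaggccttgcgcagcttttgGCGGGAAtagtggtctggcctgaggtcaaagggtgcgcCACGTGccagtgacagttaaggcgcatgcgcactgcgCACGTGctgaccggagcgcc
Sycp3: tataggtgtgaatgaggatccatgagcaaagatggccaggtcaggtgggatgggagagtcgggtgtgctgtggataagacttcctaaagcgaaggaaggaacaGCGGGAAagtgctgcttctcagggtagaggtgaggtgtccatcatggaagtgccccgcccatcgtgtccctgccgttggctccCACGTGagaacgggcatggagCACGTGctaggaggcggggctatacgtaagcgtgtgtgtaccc
Rbm46: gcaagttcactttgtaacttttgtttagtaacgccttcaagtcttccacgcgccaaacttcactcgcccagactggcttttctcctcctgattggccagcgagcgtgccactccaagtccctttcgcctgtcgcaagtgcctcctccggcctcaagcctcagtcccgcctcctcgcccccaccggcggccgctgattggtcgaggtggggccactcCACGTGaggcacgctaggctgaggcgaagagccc
Meioc: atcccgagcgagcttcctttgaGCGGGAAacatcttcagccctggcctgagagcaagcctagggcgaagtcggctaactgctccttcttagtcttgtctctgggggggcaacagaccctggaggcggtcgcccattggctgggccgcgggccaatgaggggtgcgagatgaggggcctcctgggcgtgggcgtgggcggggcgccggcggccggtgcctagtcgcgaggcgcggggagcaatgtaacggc
Syce1: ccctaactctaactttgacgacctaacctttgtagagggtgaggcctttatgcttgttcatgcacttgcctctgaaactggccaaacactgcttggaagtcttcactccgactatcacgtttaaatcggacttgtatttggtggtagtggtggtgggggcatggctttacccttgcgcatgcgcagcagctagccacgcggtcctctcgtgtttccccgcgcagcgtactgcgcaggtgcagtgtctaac
Hormad1 carried CACGTG 57 and 20 bases before its start and GCGGGAA 95 bases before it. Sycp3 carried CACGTG 64 and 43 bases before the start and GCGGGAA 147 bases before. Rbm46 had 1 CACGTG at 34 bases and Meioc 1 GCGGGAA at 228 bases. The Meioc window precedes the RefSeq start but lies inside the gene as GENCODE M21 annotates it, whose start is at 102663716. The Syce1 window held neither word.

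The libraries of each group correlated evenly except for 4 morulae, but gene counts differed between oocyte genotypes. Between 10902 and 13086 genes reached a value of 1 per library. The counts were 11734 and 11637 in PRC1-WT against 12726 and 13086 in PRC1-CD. They were 11380 to 11464 in WT oocytes, 11870 to 12088 in DKO and 11684 to 11980 in TKO. Every mutant oocyte library was thus above every control library of its set. The oocyte markers Zp3, Gdf9, Bmp15, Oosp1 and Nlrp5 summed to between 6250 and 8486 RPKM in the oocytes. The morula markers Pou5f1, Nanog, Sox2, Cdx2, Klf5 and Tfap2c summed to between 269 and 678 TPM in the morulae. Median correlation with the own group was at least 0.9836 in oocytes and between 0.9188 and 0.9652 in 26 morulae, but it was between 0.8784 and 0.8995 in matDKO replicates 8 and 9 and matTKO replicates 8 and 9. The count of called morula genes depends on these 4 libraries and is given with and without them below. Of the genes deleted with Pcgf6, Pcgf1 averaged 1108 RPKM in WT oocytes but 12.3 in DKO and 12.2 in TKO oocytes. Kmt2b averaged 4.85 RPKM in the WT libraries, 3.9 in DKO and 1.14 in TKO oocytes. In morulae, Pcgf1 was lower in matDKO (9.94 against 23.4 TPM in WT, limma adjusted p = 0.00184). In matTKO morulae Pcgf1 averaged 14.9 TPM (6.95 to 26.9) and was not called against WT. Kmt2b averaged 6.69 TPM in WT and 6.87 in matTKO.

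Changes are log2 differences on the log2(value + 1) scale from limma, which understates the change of low genes. A gene was tested where a group mean reached 1, and called where the Benjamini-Hochberg adjusted p was below 0.05. Each error is a standard error (SE) unless an SD is named. Where the libraries of groups are said not to overlap, the share of all genes that separated likewise was not counted. DKO and TKO were compared with the same 3 WT libraries, and TKO with the same 3 DKO libraries, so these comparisons share samples. The same holds for the morula comparisons.

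Pcgf6 was the most abundant PRC1.6 transcript in wild-type oocytes. In DKO and TKO against WT, where it was itself deleted, it was the tested member that changed most on the log2(value + 1) scale. It encodes the ring-finger protein that defines the complex, and lies on chromosome 19 at 47033617 to 47050906 on the minus strand (GRCm38, protein coding). The WT oocyte libraries held 148, 159 and 155.1 RPKM of Pcgf6, the DKO libraries 60.3, 56.0 and 55.1, and the TKO libraries 61.9, 81.6 and 73.2. All 6 knockout libraries lay below all 3 WT libraries. In DKO oocytes the mean was 37.1% of WT, a log2 change of -1.41 ± 0.09 (n = 3 and 3, limma adjusted p = 6.58e-06). In TKO oocytes it was 47.0% of WT, or -1.09 ± 0.09 (adjusted p = 1.48e-05). A change in transcript per cell and a change in the RNA of other genes cannot be told apart in these bulk values, nor can fewer cells of a type and less RNA per cell. Because the deleted exons are not known here, a gene-level value does not separate shortened from intact Pcgf6 transcript. For comparison, Pcgf1 in the same DKO libraries was at 1.11% of WT. TKO oocytes held more Pcgf6 than DKO oocytes (0.33 ± 0.09, adjusted p = 0.016), with each TKO library above each DKO library. That call was lost without DKO replicate 3 (0.30, adjusted p = 0.0537, in a range of 0.00163 to 0.0537 over 13 alternatives).

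In the catalytic-dead set, Pcgf6 stood at 161 and 183 RPKM in PRC1-WT and at 246 and 206 RPKM in PRC1-CD. Both PRC1-CD libraries were the higher ones, but the change of 0.39 ± 0.17 did not pass the test (n = 2 and 2, adjusted p = 0.142, 95% interval 0.00 to 0.79). In WT oocytes of the knockout set Pcgf6 ranked at the 92.5th percentile of 11439 genes with a mean of at least 1. In PRC1-WT oocytes it ranked at the 93.7th of 11739.

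**Figure D1:**
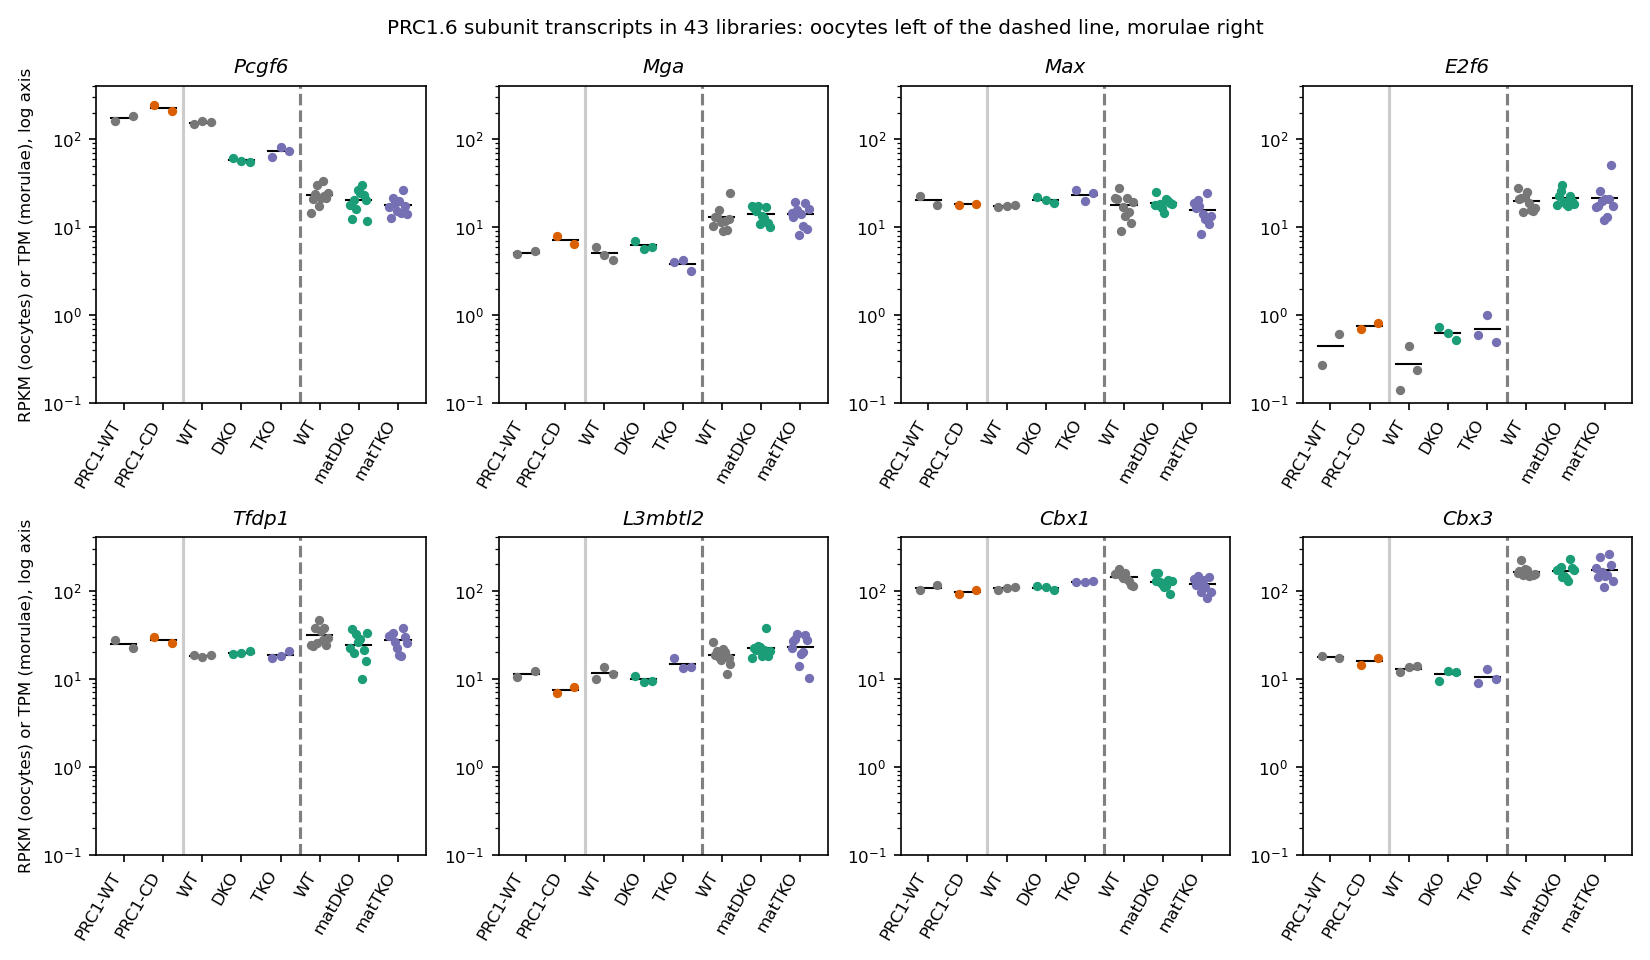
Level of each PRC1.6 subunit in every library, as RPKM in oocytes and TPM in morulae on a log axis. Points are libraries, horizontal bars are group means, the pale line separates the 2 oocyte sets and the dashed line separates oocytes from morulae. Pcgf6 sits between 55.1 and 81.6 RPKM in the 6 DKO and TKO libraries and between 148 and 159 in WT, while E2f6 is at or under 1 RPKM in all 13 oocyte libraries.

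In DKO and TKO against WT, the tested DNA-binding subunits changed less than Pcgf6. Of these subunits only Mga and Max passed the test in any oocyte comparison, and E2f6 was too low to be tested. Mga is the large scaffold that carries both a T-box and a MAX-binding domain (chromosome 2, 119897228 to 119969581, plus strand). Its level was 5.99, 4.87 and 4.23 RPKM in the WT libraries, 6.99, 5.63 and 6.01 in DKO and 4.02, 4.18 and 3.19 in TKO. The TKO libraries lay below all WT and all DKO libraries, and DKO and WT overlapped. Mga was lower in TKO than in DKO (-0.59 ± 0.14, adjusted p = 0.00587). The difference of TKO from WT was -0.33 ± 0.14 (adjusted p = 0.0724), and it passed the test in some alternatives, with an adjusted p of 0.0239 after quantile normalisation, 0.0318 after median-ratio scaling and 0.047 without WT replicate 3 (range over 13 alternatives 0.0239 to 0.257). In PRC1-CD oocytes Mga was at 7.91 and 6.36 RPKM against 4.94 and 5.33 in PRC1-WT, a difference of 0.40 ± 0.19 that did not pass (adjusted p = 0.169).

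Max encodes the obligate partner of MGA and of the MYC and MXD families (chromosome 12, 76937269 to 76962201, minus strand). The Max libraries stood at 17.1, 17.3 and 17.8 RPKM in the WT libraries, 21.8, 20.3 and 18.7 in DKO and 26.4, 19.6 and 24.2 in TKO. All 6 knockout libraries lay above WT, and the DKO and TKO ranges overlapped. TKO exceeded WT by 0.40 ± 0.11 (adjusted p = 0.0114), whereas the DKO difference of 0.21 ± 0.11 did not pass (adjusted p = 0.18). TKO and DKO differed by 0.19 ± 0.11, which passed only without TKO replicate 2 (0.31, adjusted p = 0.0164; range over 13 alternatives 0.0164 to 0.436). In the catalytic-dead set the PRC1-WT libraries held 22.8 and 17.9 RPKM and the PRC1-CD libraries 17.9 and 18.3 (-0.15 ± 0.18, adjusted p = 0.585).

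E2f6 encodes the repressive E2F that docks the complex on E2F sites (chromosome 12, 16810963 to 16839742, plus strand), and its transcript was scarce in oocytes. It read 0.14, 0.45 and 0.24 RPKM in the WT libraries, 0.74, 0.63 and 0.52 in DKO and 0.60, 1 and 0.50 in TKO. In the catalytic-dead set it read 0.27 and 0.62 in PRC1-WT and 0.69 and 0.82 in PRC1-CD. The mean of E2f6 was 228% of WT in DKO and 253% in TKO, from a WT mean of 0.28 RPKM. In PRC1-CD it was 170% of PRC1-WT. Every mutant library exceeded every control library of its own set, but the share of all genes that did so was not counted. Each mutant oocyte library also had more genes at a value of 1 or more than its controls. E2f6 stayed under the filter in both oocyte tables and so was not tested there. With no filter, the differences were 0.36 ± 0.13 in DKO (adjusted p = 0.125), 0.41 ± 0.13 in TKO (adjusted p = 0.0553) and 0.29 ± 0.16 in PRC1-CD (adjusted p = 0.339), none of which passed. Sequencing depth is unknown for these files, so no counting interval can be put on such low values.

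Tfdp1 encodes the DP partner of E2F proteins (chromosome 8, 13338751 to 13378448, plus strand) and was among the steadiest members in oocytes. It held 18.6, 17.6 and 18.6 RPKM in the WT libraries, 18.9, 19.5 and 20.5 in DKO and 17.0, 17.9 and 20.3 in TKO. The DKO difference of 0.10 ± 0.08 (adjusted p = 0.405) and the TKO difference of 0.01 ± 0.08 (adjusted p = 0.935) did not pass. In PRC1-CD it was at 29.8 and 25.7 RPKM against 27.5 and 22.3 in PRC1-WT (0.15 ± 0.18, adjusted p = 0.582). Its alternative partner gene Tfdp2, which encodes another DP protein, held 6.17, 6.60 and 6.59 RPKM in the WT libraries, 7.49, 7.06 and 7.28 in DKO and 10.3, 9.48 and 9.80 in TKO. Tfdp2 was higher in TKO than in WT (0.54 ± 0.08, adjusted p = 0.000499) and than in DKO (0.39 ± 0.08, adjusted p = 0.00356). The deacetylase and methyltransferase partners Hdac1, Hdac2 and Ehmt1 passed the test in none of the 7 comparisons, and neither did Ehmt2 in morulae. Ehmt2 averaged 0.13 RPKM in WT oocytes and was not tested there.

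L3mbtl2 encodes the MBT-domain protein of the complex (chromosome 15, 81663889 to 81688315, plus strand). It stood at 9.86, 13.6 and 11.2 RPKM in the WT libraries, 10.8, 9.05 and 9.52 in DKO and 17.0, 13.4 and 13.5 in TKO. The DKO and TKO libraries did not overlap, and TKO was higher by 0.53 ± 0.13 (adjusted p = 0.0084). Neither DKO (-0.21 ± 0.13, adjusted p = 0.264) nor TKO (0.32 ± 0.13, adjusted p = 0.0694) passed against WT. The TKO difference from WT passed without WT replicate 2 (0.43, adjusted p = 0.0291; range over 13 alternatives 0.0291 to 0.239). In PRC1-CD, L3mbtl2 was at 6.84 and 8.12 RPKM against 10.5 and 12.1 in PRC1-WT. Both mutant libraries were lower, with a change of -0.53 ± 0.18 (adjusted p = 0.0772), which passed only after quantile normalisation (-0.63, adjusted p = 0.0465; range over 10 alternatives 0.0465 to 0.31). Quantile normalisation also shifted the median of all genes in that comparison from 0.04 to -0.08.

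Cbx1 and Cbx3 encode HP1 beta and HP1 gamma, chromodomain proteins that bind methylated histone H3. Cbx1 (chromosome 11, 96789127 to 96808640, plus strand) was the second most abundant member in WT oocytes, with 102.6, 107 and 109.7 RPKM. DKO libraries held 111, 109.7 and 100.3 RPKM of Cbx1 and TKO libraries 124, 126 and 127. The TKO libraries lay above all others. Cbx1 was higher in TKO than in WT (0.24 ± 0.06, adjusted p = 0.00867) and than in DKO (0.23 ± 0.06, adjusted p = 0.0106). The first of these calls was lost under median-ratio scaling (0.14, adjusted p = 0.0813; range over 13 alternatives 0.00809 to 0.0813). In DKO against WT the 95% interval of the Cbx1 difference was -0.13 to 0.14. Cbx1 stood at 101 and 114 RPKM in PRC1-WT and 90.6 and 101.9 in PRC1-CD (-0.16 ± 0.16, adjusted p = 0.506).

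Cbx3 (chromosome 6, 51470360 to 51483704, plus strand) held 11.8, 13.4 and 13.8 RPKM in the WT libraries, 9.50, 12.2 and 11.96 in DKO and 8.85, 12.8 and 10.02 in TKO. The 3 groups overlapped. TKO differed from WT by -0.29 ± 0.14 (adjusted p = 0.108), which passed under median-ratio scaling (adjusted p = 0.0495) and without TKO replicate 2 (-0.42, adjusted p = 0.0193; range over 13 alternatives 0.0193 to 0.305). PRC1-WT held 17.8 and 17.3 RPKM of Cbx3 and PRC1-CD 14.2 and 17.3 (-0.15 ± 0.17, adjusted p = 0.565).

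Counted together, 0 of 7 tested members passed in PRC1-CD, where 22.9% of all tested genes were called. At an unadjusted limma p under 0.05, 1 of the 7 passed in that comparison (L3mbtl2) and 1 of 7 in DKO against WT. At that threshold 5 of 7 passed in TKO against WT and 4 of 7 in TKO against DKO. The share of all tested genes below that unadjusted threshold was not counted. After adjustment, the only 1 of 7 to pass in DKO against WT was the deleted Pcgf6 (lower), against 28.8% of all genes. In TKO against WT, 3 of 7 passed, Max and Cbx1 higher and the deleted Pcgf6 lower, against 51.3% of all genes. Because Pcgf6 was deleted by design, its calls against WT say nothing about the other members. In TKO against DKO, 4 of 7 passed, Pcgf6, L3mbtl2 and Cbx1 higher and Mga lower, against 48.6% of all genes. With 7 tested genes, these counts are given as a description and were not tested against the background. The median member change was -0.15 in PRC1-CD, 0.01 in DKO, 0.01 in TKO against WT and 0.19 in TKO against DKO, beside medians over all tested genes of 0.04, 0.03, 0.09 and 0.04. The balance of higher and lower genes overall depended on scaling. It was 2309 higher and 750 lower in PRC1-CD and became 1608 and 1538 after quantile normalisation. In DKO it moved from 2251 and 1450 to 1857 and 2065, and in TKO against WT from 4013 and 2592 to 3317 and 3177 after median-ratio scaling.

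**Figure D2:**
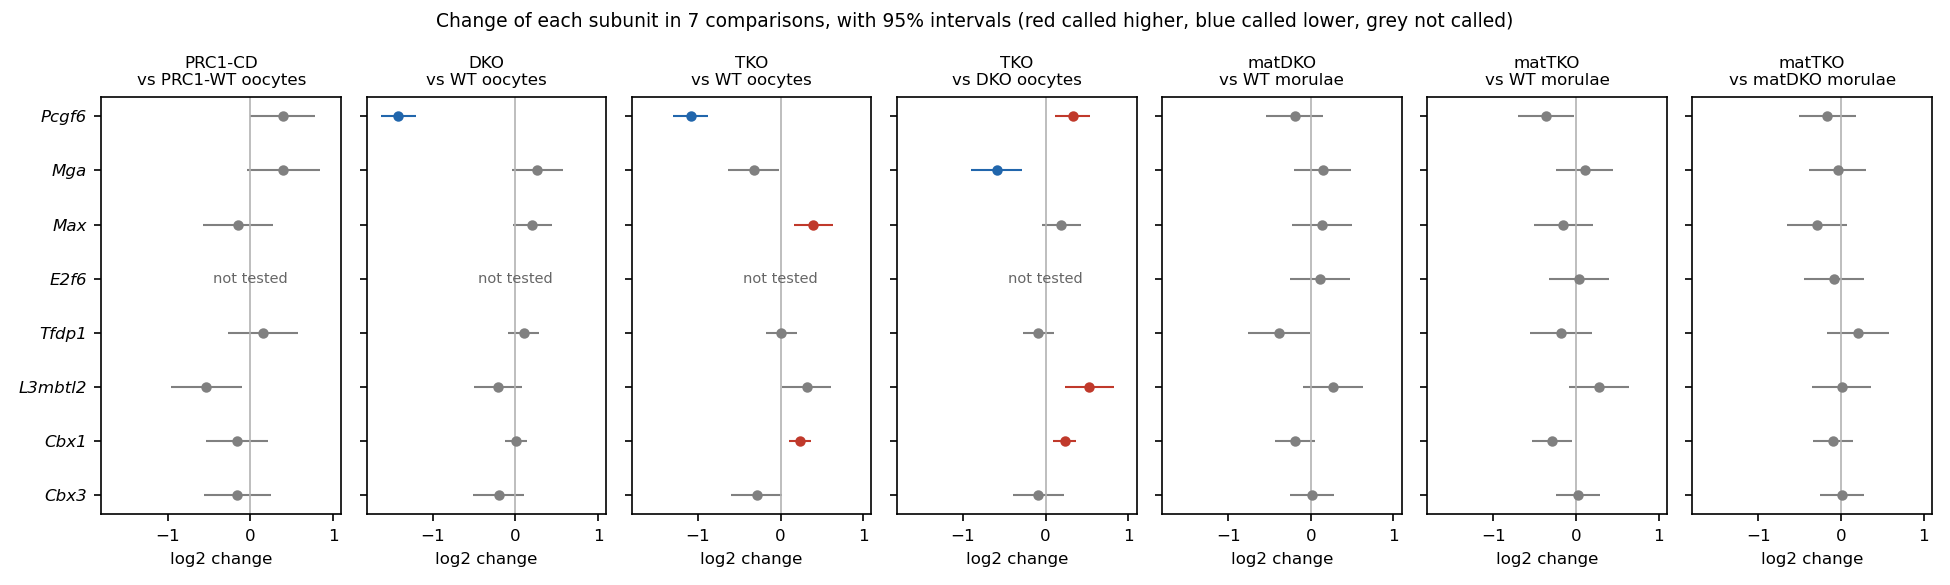
Change of each subunit on the log2(value + 1) scale in the 7 comparisons, with 95% intervals from limma; red marks genes called higher, blue genes called lower and grey genes not called. Pcgf6, itself deleted in DKO and TKO oocytes, stands apart from the other tested members there at -1.41 and -1.09 against WT. No member is coloured in the 3 morula panels.

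In morulae, all 8 members passed the filter and 0 of 8 passed the limma test in any of the 3 comparisons. The share of all tested genes called was 1.74% in matDKO against WT (0.329% higher and 1.41% lower). It was 0.567% in matTKO against WT (0.176% higher and 0.391% lower) and 0.0689% in matTKO against matDKO (0.046% higher and 0.023% lower). At an unadjusted p below 0.05, 1 member passed in matDKO (Tfdp1) and 2 in matTKO (Pcgf6 and Cbx1), and 0 did between matTKO and matDKO. The share of all tested genes below that unadjusted threshold was not counted. The members' median change was 0.07 in matDKO and -0.06 in matTKO, beside -0.09 and -0.06 over all tested genes. The called genes in matDKO split into 43 higher and 184 lower, and into 103 and 152 after quantile normalisation. In matTKO the split was 23 higher and 51 lower, and it became 60 and 77 after quantile normalisation. Without the 4 libraries of low similarity, an alternative chosen after seeing the data, 300 genes were called in matDKO and 183 in matTKO, compared with 227 and 74, and still 0 of 8 members.

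Pcgf6 in the WT morulae ranged from 14.3 to 33.5 TPM with a median of 22.2. In matDKO it ranged from 11.7 to 30.1 (median 20.3) and in matTKO from 12.7 to 26.2 (median 17.1). The 3 ranges overlapped widely. The differences of -0.19 ± 0.17 in matDKO (adjusted p = 0.565, 95% interval -0.54 to 0.15) and -0.36 ± 0.17 in matTKO (adjusted p = 0.353, -0.70 to -0.02) are smaller than the -1.41 and -1.09 of the oocytes, but the stages were not tested against each other because the tables were normalised separately.

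E2f6, at or below 1 RPKM in every oocyte library, was not scarce in morulae. The WT morulae held 14.7 to 27.6 TPM (median 19.6). The matDKO morulae held 17.4 to 30.1 TPM of E2f6 and the matTKO morulae 12.02 to 50.2. The matDKO and matTKO differences from WT were 0.12 ± 0.18 (adjusted p = 0.77) and 0.03 ± 0.18 (adjusted p = 0.955). Mga ranged from 8.94 to 24.3 TPM in WT, 10.1 to 17.4 in matDKO and 8.14 to 19.5 in matTKO. Max ranged from 9 to 28.2, 14.4 to 24.9 and 8.40 to 24.7 TPM in the same order. All these ranges overlapped between genotypes.

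Tfdp1 had the largest difference from WT among the members in matDKO morulae. Its medians were 28.3 TPM in WT (23.3 to 46.9), 24.1 in matDKO (9.90 to 36.6) and 28.2 in matTKO (18.1 to 37.2). The matDKO difference was -0.38 ± 0.19 (adjusted p = 0.28). L3mbtl2 had medians of 18.0 TPM in WT (11.3 to 25.7), 21.1 in matDKO (17.3 to 37.7) and 24.6 in matTKO (10.2 to 31.97), with differences of 0.27 ± 0.18 (adjusted p = 0.437) and 0.28 ± 0.18 (adjusted p = 0.524). Both genes had overlapping ranges in the 3 genotypes.

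Cbx1 and Cbx3 were the most abundant members in morulae. Cbx1 had medians of 144 TPM in WT (112 to 177), 126 in matDKO (90.6 to 159.6) and 119 in matTKO (82.8 to 147). It differed from WT by -0.19 ± 0.12 in matDKO (adjusted p = 0.417) and -0.29 ± 0.12 in matTKO (adjusted p = 0.286). Cbx3 had medians of 157 TPM in WT (147 to 221), 171 in matDKO (128 to 227) and 156 in matTKO (110.4 to 257), and its differences from WT were 0.02 ± 0.13 in both (adjusted p = 0.964 in matDKO and 0.954 in matTKO). The signs of the small Cbx3 differences turned negative without the 4 libraries of low similarity (-0.06 in matDKO and -0.08 in matTKO), as did that of E2f6 in matTKO (-0.14).

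The order of the members differed between the stages. By mean level per transcript length, the order in WT oocytes of both sets was Pcgf6, Cbx1, Tfdp1, Max, Cbx3, L3mbtl2, Mga and E2f6. Tfdp1 and Max overlapped in range in both sets, as did Cbx3 and L3mbtl2 in the knockout set, and the other neighbours were separate. In DKO and TKO oocytes Cbx1 stood above Pcgf6 in 3 of 3 libraries each. In WT morulae the order was Cbx3, Cbx1, Tfdp1, Pcgf6, E2f6, L3mbtl2, Max and Mga. There only Cbx1 and Tfdp1 were separated as neighbours by range, although Cbx3 exceeded Cbx1 within 10 of 10 libraries. Cbx3 ranked at the 57.7th percentile of expressed genes in WT oocytes of the knockout set and at the 92.0th in WT morulae. Pcgf6 ranked at the 92.5th and the 67.4th. These ranks were taken within separately normalised tables of different units and are a description with no test.

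The subunits that PRC1.6 shares with other PRC1 forms are the catalytic pair Rnf2 and Ring1 and the alternative subunits Rybp and Yaf2, which bind the catalytic protein. Rnf2 passed in none of the 7 comparisons. It held 37.6, 39.3 and 36.9 RPKM in the WT libraries, 38.3, 41.0 and 36.1 in DKO and 33.5, 31.8 and 35.6 in TKO (TKO against WT -0.17 ± 0.07, adjusted p = 0.078). In the catalytic-dead set it held 63.1 and 47.4 RPKM in PRC1-WT and 71.1 and 42.8 in PRC1-CD, so a transcript of the catalytic subunit was present in all of them. Ring1 averaged 3.20 RPKM in PRC1-WT, 3.09 in PRC1-CD and 0.033 in WT oocytes of the knockout set, where it was not tested.

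Rybp was lower in DKO and higher in TKO oocytes. It read 9.21, 9.22 and 10.1 RPKM in the WT libraries, 7.42, 7.70 and 7.63 in DKO and 13.9, 12.3 and 13.4 in TKO, and the 3 groups did not overlap. The changes from WT were -0.29 ± 0.08 in DKO (adjusted p = 0.0273) and 0.43 ± 0.08 in TKO (adjusted p = 0.002), and TKO exceeded DKO by 0.72 ± 0.08 (adjusted p = 0.000116). The DKO call rests on every library: leaving out any 1 of the 3 WT or 3 DKO libraries ended it (adjusted p 0.016 to 0.114 over 13 alternatives), whereas both TKO calls held in all 13 alternatives. Wdr5, a WD40 protein of PRC1.6 and of MLL complexes, showed 30.1, 32.7 and 30.9 RPKM in the WT libraries, 28.2, 26.1 and 25.4 in DKO and 48.9, 37.1 and 40.5 in TKO. Its rise in TKO passed against WT (0.41 ± 0.10, adjusted p = 0.00666) and against DKO (0.64 ± 0.10, adjusted p = 0.00063), while its DKO difference did not (adjusted p = 0.114).

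Yaf2 was the shared subunit that changed in morulae. Its WT morula libraries ranged from 0.91 to 10.5 TPM and its matDKO libraries from 0.39 to 3.37, and the ranges overlapped only because WT replicate 9 was at 0.91 while the other WT libraries were at 3.86 or more. Yaf2 was lower in matDKO by -1.34 ± 0.25 on the log2 scale (n = 10 and 10, adjusted p = 0.00329). In matTKO it ranged from 1.33 to 4.94 TPM (-0.71 ± 0.25, adjusted p = 0.196). The difference between matTKO and matDKO was 0.63 ± 0.25 (adjusted p = 0.579). In oocytes Yaf2 stood at 17.7, 20.1 and 16.7 RPKM in the WT libraries, 23.2, 19.0 and 19.1 in DKO and 13.1, 17.9 and 13.4 in TKO, and only TKO against DKO passed (-0.45 ± 0.13, adjusted p = 0.0171). That oocyte call of Yaf2 was lost without DKO replicate 1, TKO replicate 1 or TKO replicate 3 (range over 13 alternatives 0.00242 to 0.0619), while the matDKO call held in all 9 alternatives. Over the list of 5 shared subunits, 0 of 5 passed in PRC1-CD, 1 of 4 in DKO, 2 of 4 in TKO against WT, 3 of 4 in TKO against DKO, 1 of 5 in matDKO and 0 of 5 in matTKO. The shares of all tested genes called in these comparisons were 22.9%, 28.8%, 51.3%, 48.6%, 1.74% and 0.567%.

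**Figure D3:**
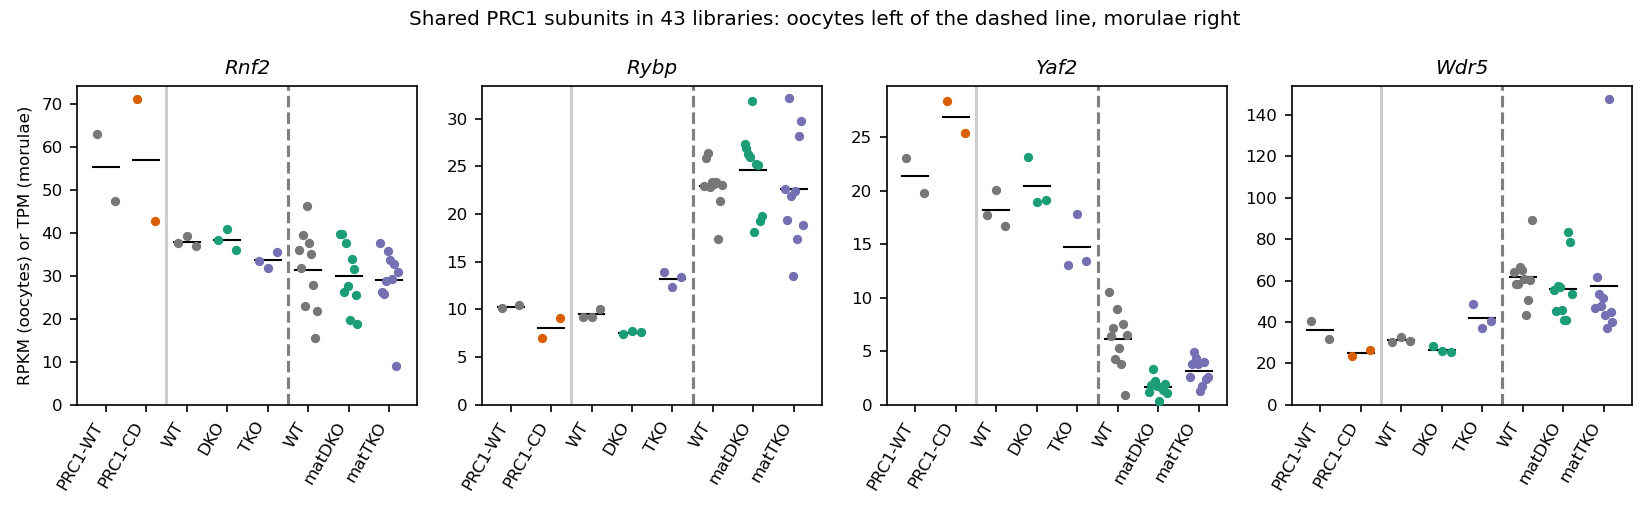
Levels of 4 shared PRC1 subunits in every library on linear axes that start at 0, as RPKM in oocytes and TPM in morulae. Points are libraries and bars are group means. Rybp separates into 3 levels in WT, DKO and TKO oocytes, and Yaf2 lies at or below 3.37 TPM in all 10 matDKO morulae.

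Relatives of the members were called in oocytes beside large shares of all tested genes. Of 16 paralogues, 12 were tested in each oocyte comparison. In PRC1-CD, 3 were higher and 0 lower, where 22.9% of all tested genes were called. In DKO 3 were higher and 2 lower, counting the deleted Pcgf1, beside 28.8% of all genes. In TKO against WT, 6 were higher and 2 lower (51.3% of all genes), and in TKO against DKO 4 were higher and 2 lower (48.6%). E2f8 is in the higher counts of all 4, but in the comparisons with controls it reached the filter only through the mutant libraries. Among the paralogues with a control mean of at least 1, 2 of 10 were higher in PRC1-CD, 2 of 11 in DKO and 5 of 11 in TKO. Pcgf5, which encodes another PCGF protein of a non-canonical complex, held 7.73 and 8.75 RPKM in PRC1-WT and 23.3 and 18.2 in PRC1-CD (1.23 ± 0.19, adjusted p = 0.00409), a call lost without PRC1-CD replicate 1 (adjusted p = 0.0727; range over 10 alternatives 0.0019 to 0.0727). It held 5.39, 6.88 and 6.27 RPKM in the WT libraries, 13.8, 11.9 and 14.0 in DKO and 7.05, 10.6 and 8.65 in TKO. Pcgf5 rose in DKO by 0.99 ± 0.14 (adjusted p = 0.000683) and was lower in TKO than in DKO by -0.56 ± 0.14 (adjusted p = 0.00841). E2f8, an atypical repressive E2F, was higher in PRC1-CD (0.65 ± 0.19), DKO (0.60 ± 0.11) and TKO (1.03 ± 0.11) than in the controls, from group means of 0.67 RPKM in PRC1-WT and 0.69 in WT, below the filter. The PRC1-CD call of E2f8 was lost in 8 of 9 alternatives, among them each left-out library (adjusted p 0.0482 to 0.317), and its DKO and TKO calls held in all 12. E2f1 and E2f2, activating E2Fs, were higher in TKO than in DKO (0.89 ± 0.14 and 0.59 ± 0.14). In morulae 14 paralogues were tested. Pcgf1 was lower in matDKO, and E2f7, an atypical E2F, was higher in matTKO (0.70 ± 0.16, adjusted p = 0.0389), which missed the threshold with a pseudocount of 0.1 and with no filter (range over 8 alternatives 0.00352 to 0.0525).

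Of 11 other genes of the MAX network, 7 were tested in PRC1-CD, 6 in each comparison of the knockout oocytes and 9 in morulae. In PRC1-CD, 1 of 7 was higher and 2 were lower, where 22.9% of all tested genes were called. These were Mycl, a MYC family gene (1.14 ± 0.19, means 0.04 and 1.33 RPKM), and the genes of the MLX branch Mlx (-0.61 ± 0.17) and Mlxipl (-0.75 ± 0.18). Leaving out any 1 of the 4 libraries ended the calls of Mlx (adjusted p 0.0294 to 0.19 over 10 alternatives) and Mlxipl (0.0118 to 0.17 over 10). The Mycl call was lost on leaving out either PRC1-WT library and after quantile normalisation (0.00348 to 0.129 over 8). In DKO, 2 of 6 were higher, the MXD family repressors Mxi1 (0.91 ± 0.17) and Mxd4 (0.53 ± 0.07), beside 28.8% of all genes called. In TKO against WT, 3 of 6 were higher beside 51.3% of all genes called, namely Mxi1 (0.77 ± 0.17), Mlxip (0.53 ± 0.12) and Mxd4 (0.22 ± 0.07). The last of these calls was lost in 5 of 13 alternatives, including both scalings and the left-out WT replicates 2 and 3 (adjusted p 0.0247 to 0.186). Mxd4 was lower in TKO than in DKO (-0.31 ± 0.07), the 1 call among 6 beside 48.6% of all genes. Mxi1, with a WT mean of 0.80 RPKM, and Mycl reached the filter only through the mutant libraries. Among the genes with a control mean of at least 1, which were 5 in each oocyte set, 0 were higher in PRC1-CD, 1 in DKO and 2 in TKO. In morulae 0 of 9 passed in each limma comparison, beside 1.74%, 0.567% and 0.0689% of all genes. At an unadjusted limma p under 0.05, 1 of 9 passed in each. In oocytes, 5 of 7 passed at that unadjusted threshold in PRC1-CD, 3 of 6 in DKO and 3 of 6 in TKO against WT. In TKO against DKO it was 4 of 6. The share of all tested genes below it was not counted.

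Of the germline genes reported as targets of the complex, 14 of 23 tested rose in PRC1-CD oocytes, 12 of 22 rose in DKO oocytes, and 12 of 22 were lower in TKO than in DKO, a comparison that shares the DKO libraries. In PRC1-CD, 1 was lower (Tdrd1) and 8 did not pass, with a median of 0.98 beside 0.04 over all tested genes. Of the 23 tested, 4 reached the filter only through the mutant libraries, Rbm46 and Meioc among them. Among the 19 with a PRC1-WT mean of at least 1, 11 were higher and 1 lower, compared with 17.3% higher and 5.61% lower among all tested genes. Here and below, the shares of all tested genes still include genes that reached the filter only through mutant libraries. In DKO, 3 of the 22 were lower (Tuba3a, Tuba3b and Tdrd1) and 7 did not pass, with a median of 0.67. Among the 19 with a WT mean of at least 1, 9 were higher and 3 lower, compared with 17.5% and 11.3% of all genes. In TKO against WT, 8 of 22 were higher and 4 lower (31.2% and 20.1% of all genes), and the median was 0.11. Among the 19 with a WT mean of at least 1, 6 were higher and 4 lower. In TKO against DKO, 4 were higher and 12 lower (26.8% and 21.8% of all genes), with a median of -0.46. Among the same 19, 4 were higher and 9 lower. The list came from knowledge of this complex in other cells, and was chosen with earlier results of these data known. Its median is given as a description. Leaving out any 1 of the 4 libraries of the catalytic-dead set left 9 to 11 targets called in place of 15, with 9 without PRC1-CD replicate 1. The PRC1-CD calls lost most often were Tex11 (6 of 10 alternatives), Majin (5 of 9), Tdrd1 (5 of 10), Mov10l1 (4 of 9) and Zcwpw1 (4 of 10).

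Syce1, which encodes a central-element protein of the synaptonemal complex, had the plainest pattern. It held 1.79, 2.51 and 2.20 RPKM in the WT libraries, 41.9, 45.0 and 45.6 in DKO and 2.75, 2.02 and 2.55 in TKO. The DKO libraries were far above both other groups, which overlapped. Syce1 rose in DKO by 3.84 ± 0.12 (adjusted p = 7.29e-08), was lower in TKO than in DKO by -3.72 ± 0.12 (adjusted p = 3e-08), and differed between TKO and WT by 0.12 ± 0.12 (adjusted p = 0.421). In PRC1-CD it held 27.4 and 28.6 RPKM against 1.46 and 1.95 (3.43 ± 0.18, adjusted p = 0.000126). This is the gene whose printed window held neither CACGTG nor GCGGGAA.

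Hormad1, a chromosome-axis protein of meiosis, followed a like course. Its WT libraries held 0.82, 0.86 and 1.71 RPKM, DKO 13.3, 7.44 and 5.78 and TKO 0.46, 0.83 and 0.47. It rose in DKO by 2.16 ± 0.26 (adjusted p = 0.000244), was lower in TKO than in DKO by -2.57 ± 0.26 (adjusted p = 5.27e-05), and the TKO difference from WT was -0.41 ± 0.26 (adjusted p = 0.213). In PRC1-CD, Hormad1 was at 25.7 and 26.7 RPKM against 1.04 and 1.17 (3.69 ± 0.17, adjusted p = 9.17e-05).

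Rbm46, an RNA-binding protein needed for meiotic entry, was nearly silent in WT with 0.03, 0.12 and 0.41 RPKM. It reached 30.9, 28.0 and 28.1 RPKM in DKO and 5.31, 3.94 and 2.58 in TKO, so that the TKO libraries lay between the other groups. The rise in DKO was 4.67 ± 0.19 (adjusted p = 8.08e-07) and in TKO 2.03 ± 0.19 (adjusted p = 2.79e-05), and TKO was below DKO by -2.64 ± 0.19 (adjusted p = 7.82e-06). PRC1-CD held 26.5 and 35.4 RPKM against 0.25 and 0.35 (4.61 ± 0.20, limma adjusted p = 9.17e-05). In both oocyte sets Rbm46 reached the filter only through the mutant libraries.

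Majin, which tethers telomeres to the nuclear envelope in meiosis, fell below WT in TKO. It held 1.49, 2.01 and 1.09 RPKM in the WT libraries, 10.5, 7.19 and 4.89 in DKO and 0.09, 0.08 and 0.12 in TKO, with no overlap. Majin rose in DKO by 1.72 ± 0.22 (adjusted p = 0.000381) and fell in TKO against WT (-1.19 ± 0.22, adjusted p = 0.00152) and against DKO (-2.91 ± 0.22, adjusted p = 9.92e-06).

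Sycp3, a lateral-element protein, was abundant before any change, with 54.1, 57.4 and 59.6 RPKM in WT. It reached 266, 271 and 209 RPKM in DKO and 95.5, 97.6 and 64.7 in TKO. The 3 groups did not overlap, with DKO highest (2.10 ± 0.15, adjusted p = 1.18e-05) and TKO between (0.56 ± 0.15 against WT, adjusted p = 0.0116). In PRC1-CD, Sycp3 was at 391.7 and 375 RPKM against 23.1 and 46.7 (3.50 ± 0.30, adjusted p = 0.000422).

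Meioc and Mov10l1 stayed above WT in TKO. Meioc, a meiosis-specific RNA regulator, held 0.41, 0.29 and 0.07 RPKM in the WT libraries, 9.68, 9.90 and 7.93 in DKO and 3.86, 8.14 and 5.98 in TKO (TKO against WT 2.44 ± 0.21, adjusted p = 1.51e-05). The DKO and TKO ranges of Meioc overlapped, and Meioc reached the filter only through the mutant libraries. Mov10l1, a helicase of the piRNA pathway, held 2.47, 2.21 and 1.21 RPKM in the WT libraries, 5.86, 4.42 and 4.24 in DKO and 7.68, 7.95 and 6.03 in TKO. Its TKO libraries were the highest (1.49 ± 0.19 against WT, limma adjusted p = 0.000134). The calls of TKO against DKO were lost in 8 of 13 alternatives for Meioc and in 7 of 13 for Mov10l1.

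**Figure D4:**
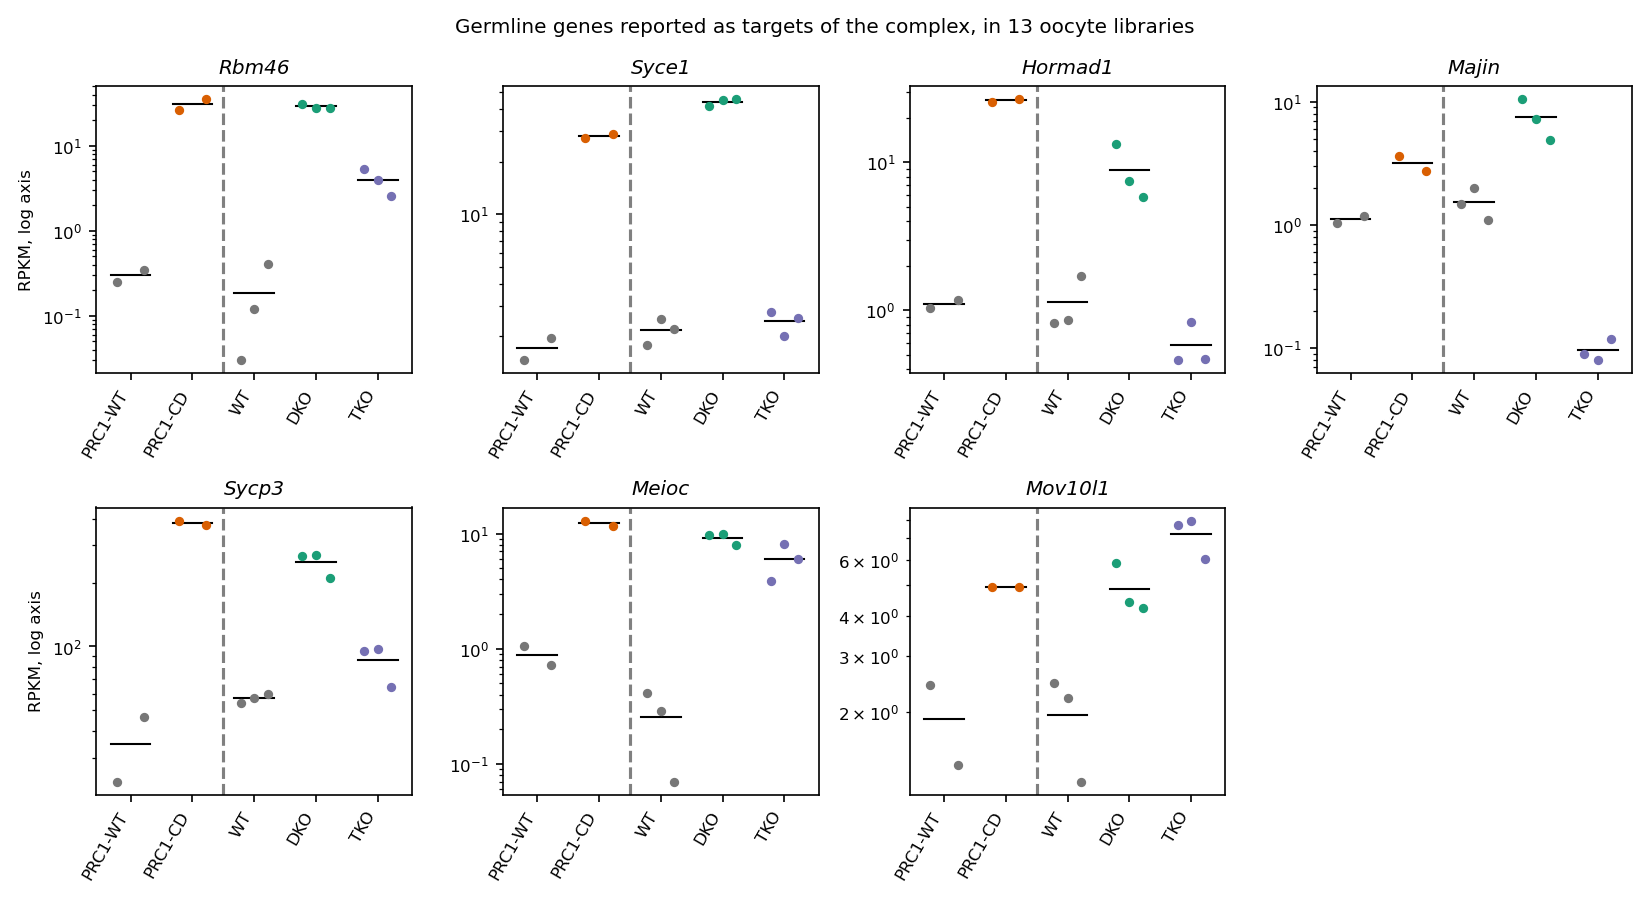
RPKM on log axes, with a separate range per panel, of 7 germline genes in the 13 oocyte libraries, where points are libraries, bars are group means and the dashed line separates the 2 oocyte sets. Syce1 stands at 41.9 to 45.6 RPKM in DKO and at 2.02 to 2.75 in TKO, Majin drops to 0.08 to 0.12 in TKO, and Mov10l1 is highest in TKO.

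In morulae 18 of the 26 germline genes were tested. Mov10l1 was called higher in matDKO (1.31 ± 0.33, adjusted p = 0.0389), and 0 of 18 were called in matTKO against WT or against matDKO. Mov10l1 ranged from 0.16 to 1.81 TPM in WT. In matDKO, replicates 8 and 9 held 0.79 and 0.69 TPM, inside the WT range, and the other 8 libraries held 2.28 to 7.68. Those replicates are the matDKO libraries of low similarity. In matTKO it ranged from 0.05 to 7.46 TPM. The gene passed the filter only through the mutant groups, and its call in matDKO was lost with a pseudocount of 0.1 (adjusted p = 0.0746) and with no filter (adjusted p = 0.0967; range over 8 alternatives 0.00198 to 0.0967).

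Markers of other cell types moved with some of these groups. The 10 granulosa or cumulus markers summed to 55.8 to 61.0 RPKM in PRC1-CD and 30.1 to 35.5 in PRC1-WT. Of these 10 genes 5 were tested and 3 were higher, beside 17.3% of all tested genes. These were Fshr (0.55 to 15.3 RPKM on average), Inha (0.285 to 1.63) and Nr5a2, and the first 2 reached the filter only through PRC1-CD. Kitl (1.25 to 2.16), Gja1 (0.055 to 0.34) and Vim (0.055 to 0.51) also averaged higher, and Cyp19a1 averaged 17.2 in both groups. Foxl2 was listed at 0 in both PRC1-WT libraries and averaged 0.065 in PRC1-CD. Amh averaged 0.025 in PRC1-WT and was listed at 0 in both PRC1-CD libraries. In the knockout set the same list summed to 29.4 to 32.8 RPKM in the WT libraries, 25.1 to 29.0 in DKO and 32.7 to 36.2 in TKO. In WT, DKO and TKO, Fshr averaged 0.48, 0.20 and 6.41 RPKM, Nr5a2 5.30, 9.17 and 9.79, and Cyp19a1 23.3, 15.1 and 16.2. Of the 5 tested, 2 were higher and 1 lower in DKO, beside 17.5% and 11.3% of all tested genes. The counts in TKO against WT were also 2 and 1, beside 31.2% and 20.1%. Fshr and Inha reached the filter only through mutant libraries. The 4 stroma markers summed to 1 to 1.06 RPKM in PRC1-WT and 5.53 to 6.44 in PRC1-CD, where Dcn averaged 5.42 RPKM and Col1a2 was listed at 0. In the knockout set they summed to 2.02 to 3.07 RPKM in the WT libraries, 0.54 to 0.93 in DKO and 1 to 3.35 in TKO. The 6 morula markers summed to 20.9 to 23.3 RPKM in WT oocytes, compared with 28.5 to 29.5 in DKO and 35.2 to 47.2 in TKO. Blood markers summed to at most 0.25 RPKM in any oocyte library. The part of these transcripts in the changes described above was not tested.

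Finally, the genes whose levels followed each member most closely were listed as a description. Over the 9 oocyte libraries of the knockout set, which share 3 genotypes, Pcgf6 was followed most closely by Slf1 (Pearson r = 0.993), Gm39847 (0.982) and Ikzf4 (0.982). Over the 30 morulae, with each genotype's mean removed, the closest gene was Nat10 for Mga (0.829), Gtf2ird1 for Max (0.718), Poldip3 for E2f6 (0.782), Golph3l for Tfdp1 (0.795) and Ftsj3 for L3mbtl2 (0.771). It was Mbnl2 for Cbx1 (0.872), Rmnd5a for Cbx3 (0.881) and LOC108169037 for Pcgf6 (0.715). The points share library quality, and the 4 libraries of low similarity are among them. Between members the highest value was 0.603 for L3mbtl2 and Cbx3 and the lowest -0.316 for Pcgf6 and Tfdp1.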

How the data were processed

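RNA was measured in mouse full-grown oocytes and morulae with the SMART-Seq v4 and Nextera XT kits, per the labels' protocols. Strand is not marked by these kits, and reads of overlapping antisense genes cannot be told apart. The submitters' processing notes name Trim Galore 0.6.4, STAR 2.7.3 and 2.7.6, RSEM 1.3.1, featureCounts 1.6.0 and the builds mm10 and GRCm38, without saying which made which table. The authors deposited RPKM for both oocyte sets. The morula values they deposited carry the same title, yet each library sums to between 999421 and 999922, and they were treated as TPM made by the authors; the log2 test planned for RPKM was kept. The depth is unknown, and tests were run only within a table. From each oocyte table, 27 entries with date-like names were dropped.

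In R 4.3.3, limma 3.58.1 (lmFit, and eBayes with a mean-variance trend) was fitted to log2(value + 1) for genes with a group mean of at least 1. All groups of a table shared the spread, and p-values were adjusted by Benjamini-Hochberg over all genes tested. The code was checked on simulated data. Alternatives varied the pseudocount, filter, scaling, replicate block, groups fitted and sample weights, and left out libraries. PRC1-CD replicate 2 has the tissue label embryo, but its title and stage say oocyte, and it was kept. The members, gene lists and naming rule were chosen with earlier results of these data known. All 8 members are named, with at most the 4 largest called changes per other list and comparison, the shared catalytic subunits and the co-deleted genes. Germline targets called lower in PRC1-CD or DKO, or often lost in the alternatives, are also named. Genes named for their markers or likeness follow fixed lists or rank. Gene positions are from GENCODE M21 and promoter sequences from RefSeq (GRCm38.p6).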

Additional observations from a re-analysis of the deposited data

Results flagged for a closer look

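Single libraries stood far from the rest of their group, by Dixon's test, for 4 of 24 member and genotype groups in morulae; chance alone gives about 5% of groups. Mga was at 24.3 TPM in WT replicate 10. Cbx3 was at 221 TPM (221.15) in WT replicate 3. E2f6 was at 50.2 TPM (50.15) in matTKO replicate 9 and L3mbtl2 at 37.7 TPM (37.69) in matDKO replicate 8, and both of these libraries are among the 4 with low similarity to their own group. No member was called in morulae with or without those 4 libraries.

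Pcgf6 and Mga lay on opposite sides of their controls in different oocyte mutants, with every library of each mutant on its own side of its controls. The share of all genes that separated in this way was not counted, and the catalytic-dead set holds only 2 libraries per group. Pcgf6 averaged 132% of PRC1-WT in PRC1-CD, but 37.1% of WT in DKO and 47% in TKO, in which Pcgf6 itself is deleted. Mga averaged 139% of PRC1-WT in PRC1-CD and 75.5% of WT in TKO. The difference between the sets was not tested, because their tables were normalised separately, and neither the PRC1-CD changes nor that of Mga in TKO (-0.33, adjusted p = 0.0724) passed the test on their own. Of these differences, the Pcgf6 changes in DKO and TKO passed it.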

How the results depend on the processing

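Across the alternatives, 199 of 228 counts stayed within 1.5 times the reported one and 0 called results changed sign. Of 559 alternative values for members, 26 changed sign, each for a member not called in either fit. Of 104 alternative values for called members, 102 stayed called, as did 1109 of 1240 for called genes of the other lists. With the replicate block, 5 members were called in TKO against WT (3 without), 607 genes in matDKO, 183 in matTKO and 16 between matTKO and matDKO. Same-numbered libraries correlated between -0.17 and 0.569 and not all above 0.1. Whether a shared number marks a shared batch was not tested. The added members were Mga (adjusted p = 0.0491) and Cbx3 (adjusted p = 0.0461). Quantile normalisation called 1 member in PRC1-CD, 137 genes in matTKO and 1 germline target there. A filter at 5 called 1664 genes in PRC1-CD and 1 between matTKO and matDKO. No filter called 93, 32 and 5 genes in matDKO, matTKO and between them. A pseudocount of 0.1 called 21 genes in matTKO. The matDKO germline count fell from 1 to 0 under the last 3 settings. Fitting only the groups compared called 127 genes in matTKO and 4 between matTKO and matDKO. Sample weights called 601, 807 and 22 genes in the morula comparisons and 1 germline target in matTKO. Omitting the 4 libraries of low similarity called 183 genes in matTKO. The cause was not tested. Leaving out each oocyte library in turn gave 1238 to 1543 genes, 0 to 0 members and 9 to 11 targets in PRC1-CD (9 without PRC1-CD replicate 1); 2421 to 2947 genes, 1 to 1 members and 13 to 16 targets in DKO (2421 without WT replicate 3); 5378 to 6576 genes, 3 to 4 members and 12 to 15 targets in TKO against WT; and 5151 to 6423 genes, 3 to 5 members and 13 to 16 targets in TKO against DKO. Depth is unknown, and the precision of low values such as E2f6 in oocytes cannot be given.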
